A study of Mus musculus with 170 samples.

Results

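Lungs of 4 female CD-1 mice given bacterial lipopolysaccharide (LPS) and of 6 given saline, all taken at 4 h, are compared here across the whole transcriptome. These 10 libraries were chosen by their labels on tissue, time and treatment from 170 libraries in all. CD-1 is an outbred stock, so the animals differ genetically. The study was built around wildfire smoke. Its other lungs and hearts came from mice exposed to particles of eucalyptus, peat, pine, pine needles or red oak, each burned in flame or as a smolder, and LPS served beside saline as a group of its own. The groups compared, all lungs, are LPS at 4 h (4 mice), LPS at 24 h (4 mice), the 10 smokes at 4 h (60 mice), saline at 4 h (6 mice) and saline at 24 h (6 mice). Each library was 1 animal by its title, and the animal numbers ran from 67 to 70 for LPS and from 31 to 36 for saline at 4 h. The sources used here give neither the dose and route of LPS nor the age of the mice. Smoke particles were delivered to the lungs by oropharyngeal aspiration in saline. All 10 libraries of the comparison were on plate 1.

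LPS is the outer-membrane glycolipid of Gram-negative bacteria. Lbp and Cd14 pass it to Tlr4 with its partner Ly96, and the receptor signals through Myd88 to the transcription factor NF-kB and through Ticam1 to Irf3 and the type I interferons. In the airway, macrophages and epithelium are among the first cells to respond, and neutrophils enter from the blood within hours.

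Expression was read as counts of short probes that hybridise to mRNA, summed per gene symbol. Totals ran from 5626517 to 6935415 counts in the LPS lungs and from 5601711 to 6235077 in the saline lungs, and 14987 to 15325 and 14108 to 15251 symbols had at least 1 count. The lowest number of detected symbols, 14108, belonged to saline replicate 1, and this library also held the lowest saline value for 360 of the genes that rose and the highest for 275 of the genes that fell. Levels are given as CPM, counts scaled to the size of each library with TMM factors. They depend on each gene's probes, so they compare animals for 1 gene and not 1 gene with another. In whole lung, fewer cells of a type and less RNA per cell cannot be told apart.

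After 4 h, 793 of 14458 genes tested had risen in LPS lungs (5.48%) and 505 had fallen (3.49%), 8.98% in either direction, by edgeR's quasi-likelihood test with a Benjamini-Hochberg adjusted p under 0.05. The rises were the larger changes: their median was 1.76 on the log2 scale against -1.24 for the falls, while the median of all genes tested was -0.04. At least 8-fold, 178 genes were higher and 21 lower, and at least 32-fold, 43 were higher and 5 lower. Falls larger than that of Crb1 (-3.34 on the log2 scale) were of genes under a mean of 5 CPM in both groups, or of clone or gene-model symbols. Of the risen genes, 613 (77.3%) were higher in all 4 LPS lungs than in all 6 saline lungs, a pattern that 6.18% of all tested genes showed. Of the fallen genes, 296 (58.6%) were lower in all LPS lungs than in all saline lungs, against 3.80% of all tested genes. A gene that was not called is not shown to be unchanged. Counts of list members that rose or fell are to be read beside the 5.48% and 3.49% over all genes tested. Without saline replicate 1, 745 genes rose and 379 fell. The number of falls depended on single LPS lungs: it was 253 without LPS replicate 3 and 302 without LPS replicate 2.

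The 4 genes used to mark the LPS response were all far above saline. Cxcl10, a chemokine for T and NK cells that interferons induce, was at 2440, 2320, 659 and 727 CPM in LPS lungs 1 to 4, against 2.03 to 11.5 CPM (median 4.21) in saline lungs. Its log2 change was 8.29 ± 0.86 (SE; edgeR adjusted p = 8.98e-14). The first 2 LPS lungs were the highest, and the lowest LPS lung was still far above every saline lung. Oasl2, an interferon-induced antiviral protein, was at 1440, 1340, 987 and 733 CPM in LPS lungs and at 60.6 to 154.7 CPM (median 82.9) in saline lungs, a log2 change of 3.56 ± 0.30 (edgeR adjusted p = 7.88e-18). Tnf, the early macrophage cytokine, was at 181.1, 116.6, 145.1 and 129.5 CPM in LPS lungs and at 5.74 to 9.8 CPM (median 6.69) in saline lungs, a log2 change of 4.34 ± 0.53 (edgeR adjusted p = 7.59e-11). Csf3, the granulocyte colony-stimulating factor, was at 12.3, 18.8, 16.4 and 7.34 CPM in LPS lungs, against 0 in 5 saline lungs and 0.155 CPM in the sixth. None of the 4 overlapped between the groups. With 335 counts in LPS and 1 in saline lungs, the ratio of Csf3 was 514, with a 95% interval of 91.7 to 20400 that covers counting error only.

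**Figure D1:**
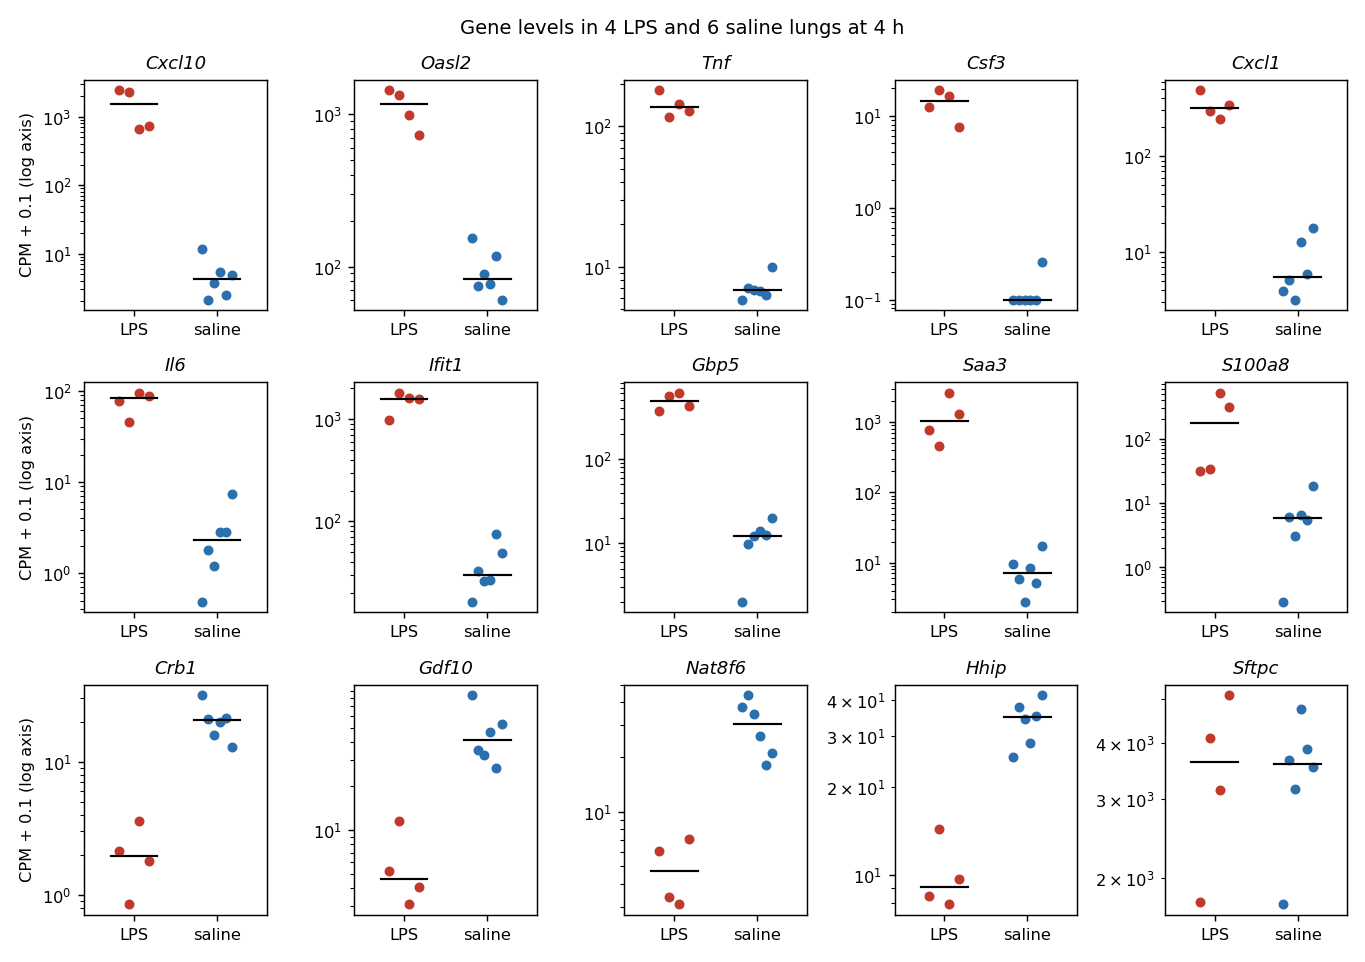
Levels of 15 genes in each lung at 4 h, as CPM + 0.1 on a log axis, with LPS lungs (4 points, replicates 1 to 4 left to right) left of saline lungs (6 points, replicates 1 to 6 left to right); bars are medians. The first 10 genes are higher in every LPS lung, Crb1, Gdf10, Nat8f6 and Hhip are lower in every LPS lung, and Sftpc overlaps.

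Promoters were searched for 2 motifs that bear on these pathways, on both strands, in the window from 250 bases before to 50 after each annotated start (RefSeq, GRCm38.p6). GAAA, any 2 bases and GAAA again is the core of the interferon-stimulated response element, where interferon regulatory factors bind, and GGGA, any 2 bases and TTCC is a form of the kB motif of NF-kB. A window was found for 10960 of the 14458 genes tested. Shares are of genes with a window, and a gene counts if any of its windows matched. The interferon element was found for 12.8% of risen genes, 2.6% of fallen genes and 3.32% of genes not called, and for 3.99% of all RefSeq symbols. The kB motif was found for 3.78% of risen genes, 1.3% of fallen genes and 1.57% of genes not called, and for 1.63% of all RefSeq symbols. Among risen genes with a window, the interferon element was in 21 of 46 interferon-induced effectors (45.7%) and in 8 of 9 GTPases (88.9%), and the kB motif in 4 of 6 CXC and CX3C chemokines (66.7%). The other lists searched held few matches: of the 6 CC chemokines none had either motif, of the 12 acute phase genes 1 had the interferon element and none the kB motif, and of the 8 NF-kB subunits and inhibitors none had the interferon element and 2 the kB motif. These are descriptions of sequence, and a match is not evidence that a factor was bound. Some named genes were left out by chromosome before genes were ranked for printing, so the ranking covers the other named genes only. Among these, 8 had 2 matches before the start, and stretches are printed for the 7 with the smallest p (Cxcl3 is the other). The stretches are shown so that the motifs can be read beside the changes of these 7 genes described next. Each is written 5' to 3' on the gene's strand with motif bases in capitals; overlapping matches form 1 run.
Cxcl10: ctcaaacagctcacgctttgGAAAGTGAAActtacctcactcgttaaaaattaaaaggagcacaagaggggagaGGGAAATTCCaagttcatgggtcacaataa
Cxcl1: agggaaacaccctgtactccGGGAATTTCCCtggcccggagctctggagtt
Cxcl2: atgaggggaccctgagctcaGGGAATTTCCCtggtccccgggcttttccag
Gbp5: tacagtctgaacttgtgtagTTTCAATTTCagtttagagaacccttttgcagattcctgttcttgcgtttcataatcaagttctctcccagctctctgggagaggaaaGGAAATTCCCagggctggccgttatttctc
Gbp3: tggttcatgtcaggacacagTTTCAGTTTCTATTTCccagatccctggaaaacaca
Irgm1: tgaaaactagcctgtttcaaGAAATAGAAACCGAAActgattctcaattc
Bst2: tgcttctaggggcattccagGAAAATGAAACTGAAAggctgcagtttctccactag
Cxcl10 (minus strand, chr5:92349019-92349122) and Gbp5 (plus strand, chr3:142496749-142496886) hold 1 match of each motif. In Cxcl10 the interferon element starts 213 bases and the kB motif 159 bases before the annotated start. Cxcl1 (plus strand, chr5:90891154-90891204) and Cxcl2 (plus strand, chr5:90903782-90903832) hold the same 11 letters, 71 and 97 bases before their starts, where the kB motif matches on both strands with an offset of 1 base. Gbp3 (plus strand, chr3:142559979-142560034), Irgm1 (minus strand, chr11:48871421-48871470) and Bst2 (minus strand, chr8:71537567-71537622) hold 2 overlapping interferon elements each and no kB motif.

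Upstream, few of the receptor's own parts were called. Of 25 tested genes of the LPS receptor and its proximal adaptors and kinases, 4 rose and none fell. Their median log2 change was 0.36, with 16 above 0 and 9 below. Cd14, the co-receptor that hands LPS to Tlr4, was at 53.9, 32.7, 37.2 and 43.7 CPM in LPS lungs and at 1.54 to 4.02 CPM (median 2.76) in saline lungs (log2 change 3.89 ± 0.60, edgeR adjusted p = 2.97e-07). The inhibitory kinase-like Irak3 averaged 50.4 ± 17.7 CPM in LPS and 13.6 ± 4.72 CPM in saline lungs (SD, n = 4 and 6; log2 change 1.89 ± 0.45), and the kinase Irak2 changed by 1.09 ± 0.19. Ikbke, a kinase upstream of Irf3, changed by 1.67 ± 0.47, but without LPS replicate 1, where it was highest, its change was 0.99 and its call was lost. Tlr4 itself was not called, at 37.2 to 92.9 CPM in LPS lungs and 8.79 to 67.2 CPM in saline lungs. Myd88, the adaptor, was higher in all 4 LPS lungs (380 to 684 CPM against 123.2 to 302 CPM) and missed the threshold (log2 change 1.49 ± 0.54, edgeR adjusted p = 0.0647). It passed under 5 of the alternatives tried, among them DESeq2 and a fit of the 4 h lungs alone, with changes of 1.5 to 1.57. Lbp missed the threshold too (log2 change 1.12, edgeR adjusted p = 0.059) and passed under 5 alternatives. Of 8 other Toll-like receptors, 1 rose, and their median log2 change was 1.36, with 6 above 0 and 2 below. The called one, Tlr2, a receptor for bacterial lipoproteins, changed by 2.62 ± 0.55.

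Downstream of the receptor, all 11 tested subunits and inhibitors of NF-kB rose, with log2 changes of 1.05 (Rela) to 3.10 (Bcl3). Nfkbia, the inhibitor that NF-kB itself induces, was at 3720, 2450, 1240 and 996 CPM in LPS lungs and at 292 to 673 CPM (median 367) in saline lungs, a log2 change of 2.38 ± 0.30 (edgeR adjusted p = 4.91e-10). The groups did not overlap, and LPS replicates 1 and 2 were higher than 3 and 4. Relb, a subunit of the non-canonical arm, showed the same order of animals, at 471, 370, 166 and 120.3 CPM in LPS lungs, against 56.6 to 99.8 CPM in saline lungs. Of 27 tested feedback inhibitors, 17 rose and none fell (median log2 change 1.75). They included the ubiquitin editor Tnfaip3 (3.34 ± 0.42), its binding partners Tnip3 (3.23 ± 0.41) and Tnip1 (2.29 ± 0.24), the RNase Zc3h12a (2.47 ± 0.25) and Usp18, which removes Isg15 from proteins (3.54 ± 0.43). Il1r2, the decoy receptor of interleukin 1, was at 12.5, 27.3, 55.8 and 46.5 CPM in LPS lungs and at 0 to 1.4 CPM in saline lungs, a log2 change of 5.94 ± 0.99. Of 26 immediate early and AP-1 genes, 13 rose, with Junb at 2.29 ± 0.25, Batf at 2.61 ± 0.35 and Atf3 at 2.74 ± 0.38, and none fell.

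Chemokines were among the largest changes. Of 13 tested CXC and CX3C chemokines 8 rose, and of 16 CC chemokines 10 rose, with none lower in either family. The ligands of Cxcr2, which draw neutrophils, rose together: Cxcl1 was at 488, 295, 245 and 339 CPM in LPS lungs and at 3.12 to 18 CPM (median 5.41) in saline lungs (log2 change 5.40 ± 0.66, edgeR adjusted p = 1.25e-10). Cxcl2 was at 692, 502, 397 and 508 CPM in LPS lungs and at 2.23 to 19.9 CPM (median 4.98) in saline lungs (6.22 ± 0.87). Cxcl5 changed by 5.76 ± 0.77 and Cxcl3 by 6.42 ± 1.10. No LPS lung overlapped saline for any of these ligands. The monocyte chemokines Ccl2 (5.77 ± 0.79) and Ccl7 (5.55 ± 0.71), the macrophage inflammatory proteins Ccl3 (5.66 ± 0.80) and Ccl4 (6.25 ± 0.88) and the epithelial chemokine Ccl20 (6.0 ± 0.78) were as far up. Ccl20 was at 2050 CPM in LPS replicate 1 and at 680 to 992 CPM in the other LPS lungs, against 8.57 to 40.9 CPM in saline lungs. Cxcl9, induced by interferon gamma, had 57 counts in LPS lungs and none in saline lungs, at least 29.2-fold higher (floor of 3 counts over the group), but LPS replicate 1 also had none and DESeq2 did not call the gene. Cxcl12, a homeostatic chemokine, was not called, at 77.6 ± 22.5 CPM in LPS and 109.1 ± 18.2 CPM in saline lungs.

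Of 19 tested chemokine receptors 4 rose. The largest was Ackr1, which carries chemokines across venular endothelium, at 11.4, 50, 103.2 and 91.8 CPM in LPS lungs and 0 to 3.58 CPM (median 2.03) in saline lungs (log2 change 5.15 ± 0.69, edgeR adjusted p = 2.72e-09). LPS replicate 1 was the lowest of the 4 and still above saline. Cxcr2, the neutrophil receptor, changed by 3.43 ± 0.56, the receptor Ccr1 by 2.86 ± 0.72 and the scavenger Ackr3 by 1.38 ± 0.27.

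Among 22 tested interleukins and growth factors of white cells, 12 rose and none fell. Il6 was at 76.8, 45.8, 95.5 and 88.1 CPM in LPS lungs and at 0.382 to 7.31 CPM (median 2.21) in saline lungs (log2 change 4.83 ± 0.81, edgeR adjusted p = 2.26e-06). Il1b was at 87.5, 72.9, 241.3 and 328 CPM in LPS lungs and at 1.53 to 10.9 CPM (median 4.16) in saline lungs (5.23 ± 0.90). Neither overlapped, and for Il1b LPS lungs 3 and 4 were the highest. Csf2 (4.99 ± 0.64), which sustains alveolar macrophages, Csf1 (2.32 ± 0.35), Il1f9 (4.99 ± 0.68), an interleukin of the IL-36 group, and Il23a (59 counts in LPS lungs against 1 in saline lungs, ratio 90.6, 95% interval 15.6 to 3640) were also higher. Ifnb1, Il10 and Il12b were too low to be tested. Ifnb1 had 10 counts in LPS and none in saline lungs, at least 5.12-fold higher against the same floor, and was seen in all 4 LPS lungs at 0.15 to 0.683 CPM. Il10 had 6 counts in LPS and 2 in saline lungs (ratio 4.61, 95% interval 0.824 to 46.7), which is not distinguishable from no change at this depth. Of the TNF superfamily, 2 of 11 ligands and 6 of 20 receptors rose and 1 receptor fell, with the receptors Tnfrsf9 (4.30 ± 0.79), Cd40 (2.45 ± 0.34), Tnfrsf1b (2.00 ± 0.29) and Fas (1.94 ± 0.29) among the rises. Without saline replicate 1, 3, 4 or 5 or LPS replicate 3 or 4 only 1 ligand was called, and without saline replicate 3 or LPS replicate 3 or 4 no receptor fell. Of 35 other cytokine receptors 12 rose, including Csf3r (2.85 ± 0.57), Il4ra (1.68 ± 0.41) and the shared chain Csf2rb (1.61 ± 0.29).

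Interferon-induced genes made the broadest block. Of 60 tested effectors 55 rose and none fell, with a median log2 change of 2.74, and all 60 had a change above 0. Slfn4, a Schlafen protein of myeloid cells, was at 2320, 1000, 4690 and 1320 CPM in LPS lungs and at 21.8 to 34.8 CPM (median 24.9) in saline lungs, a log2 change of 6.46 ± 0.64 (edgeR adjusted p = 1.32e-14). Ifit1, which binds viral RNA ends, was at 991, 1820, 1630 and 1560 CPM in LPS lungs and at 16.1 to 74.5 CPM (median 29.6) in saline lungs (5.33 ± 0.73). Isg15, the ubiquitin-like modifier, was at 1090, 1390, 2480 and 1670 CPM in LPS lungs and at 16.4 to 89.8 CPM (median 30.4) in saline lungs (5.33 ± 0.71). For all 3 the lowest LPS lung was far above the highest saline lung. Others were Oasl1 (5.78 ± 0.69), which restrains translation of Irf7, Mx1 (5.48 ± 0.55), a GTPase that blocks influenza virus, Slfn3 (5.01 ± 0.38), Dtx3l (2.86 ± 0.25) and Phf11d (2.76 ± 0.24). Of 27 sensors and transcription factors of the pathway 15 rose, led by Irf7 (3.95 ± 0.43) and the nucleic acid sensor Zbp1 (3.79 ± 0.53), with Stat2 at 2.28 ± 0.29 and Irf1 at 2.35 ± 0.41. Irf3, which is switched on by phosphorylation, was at 72.7 to 171 CPM in LPS lungs and 84.1 to 228 CPM in saline lungs and was not called.

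The GTPases that attack pathogens inside cells moved as a family. Of 18 tested, 14 rose, the other 4 had changes of 1.64 to 2.77 without passing, and the median was 3.47. Gbp5 was at 366, 561, 612 and 426 CPM in LPS lungs and at 1.91 to 19.7 CPM (median 12.3) in saline lungs (log2 change 5.39 ± 0.90, edgeR adjusted p = 2.31e-06). Gbp3 averaged 1890 ± 385 CPM in LPS and 137.7 ± 20.9 CPM in saline lungs (SD, n = 4 and 6; 3.78 ± 0.42), Gbp2 3030 ± 558 and 336 ± 73.1 CPM (3.17 ± 0.36), and Irgm1 747 ± 217 and 112.1 ± 16.4 CPM (2.74 ± 0.42). Members of this and other families share sequence, so reads of near-identical copies may be split between them. Antigen presentation was divided. Of 22 genes of MHC class I and its processing 11 rose, among them the peptide pump Tap1 (2.56 ± 0.42), the proteasome subunits Psmb10 (2.11 ± 0.31) and Psme2 (2.09 ± 0.38) and the heavy chain H2-K1 (1.5 ± 0.26). Of 12 genes of MHC class II none was called in either direction, with a median of 0.19, and Ciita, their activator, was at 9.41 to 73.6 CPM in LPS lungs and 10.1 to 65 CPM in saline lungs.

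**Figure D2:**
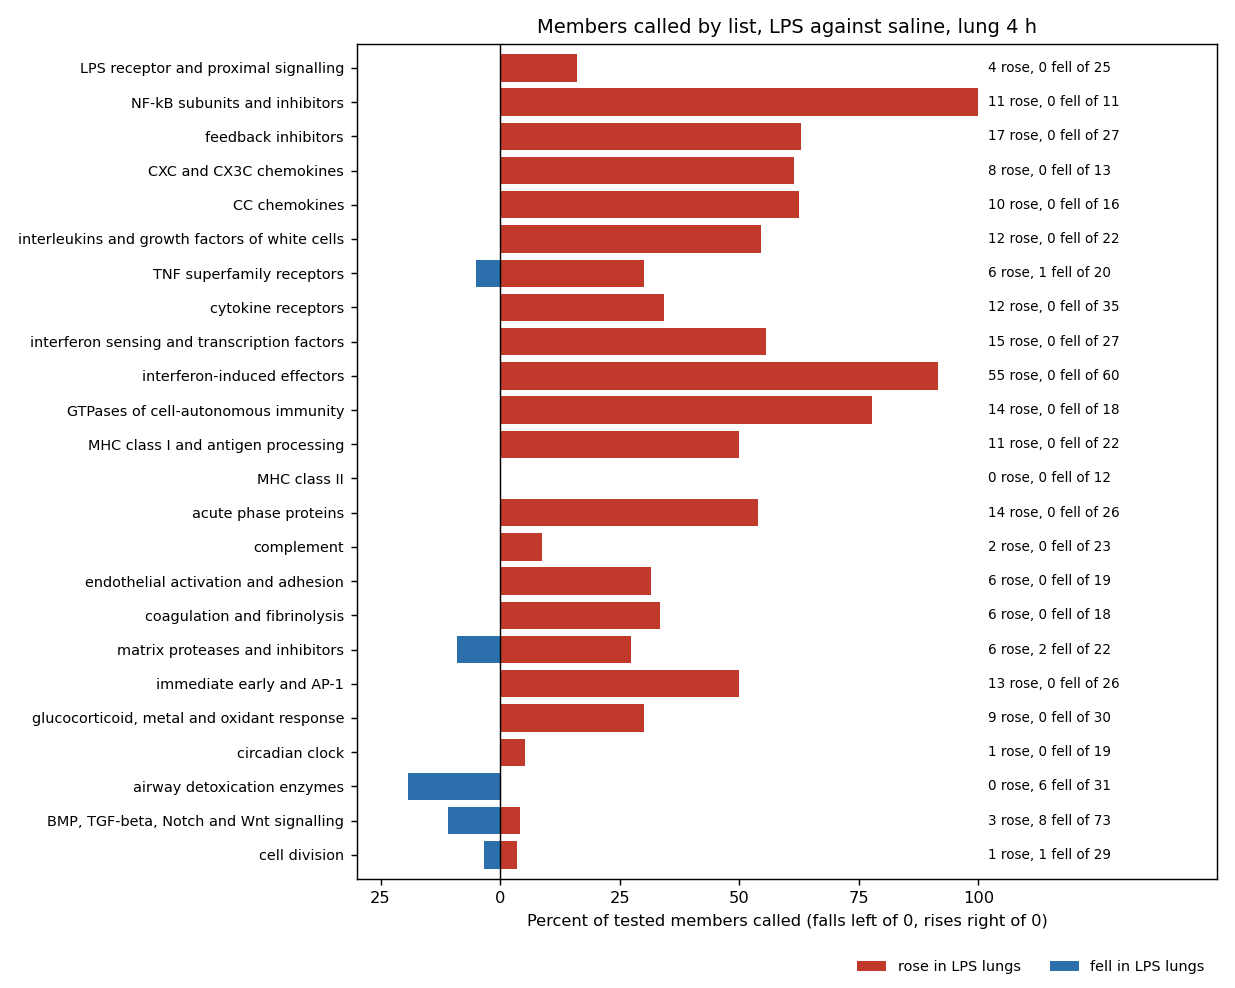
Percent of the tested members of 24 gene lists that were called higher (right of 0) or lower (left of 0) in 4 LPS lungs against 6 saline lungs at 4 h, by edgeR at an adjusted p under 0.05. Over all genes tested 5.48% rose and 3.49% fell; NF-kB parts, interferon effectors and GTPases reach furthest right, and airway detoxication enzymes furthest left.

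Acute phase genes, best known from liver, rose within the lung. Of 26 tested 14 rose, none fell, and the median was 2.54. Saa3, the serum amyloid made locally, was at 784, 459, 2640 and 1310 CPM in LPS lungs and at 2.65 to 17.1 CPM (median 7.01) in saline lungs (log2 change 7.34 ± 1.23, edgeR adjusted p = 2.33e-06). Saa1 was at 33.1, 41.3, 107.3 and 40.8 CPM in LPS lungs and at 0 to 0.685 CPM in saline lungs (7.87 ± 1.14). Lcn2, which withholds bacterial iron carriers, was at 4020, 3850, 11400 and 8560 CPM in LPS lungs and at 147.8 to 865 CPM (median 283) in saline lungs (4.31 ± 0.96). None of the 3 overlapped, and LPS replicate 3 was the highest each time. The zinc importer Slc39a14 (2.98 ± 0.30) and the protease inhibitor Serpina3n (4.29 ± 0.65) rose too. In complement 2 of 23 tested genes rose, beside 5.48% of all genes tested. Factor B, Cfb, was 1 of them, at 1140 ± 408 CPM in LPS and 161.9 ± 26.1 CPM in saline lungs (2.82 ± 0.56). The other, the anaphylatoxin receptor C5ar1 (1.57, edgeR adjusted p = 0.0497), was not called without saline replicate 1, 2, 4 or 5 or LPS replicate 2, 3 or 4 (1.40 to 1.61). C3, the central component, was at 706 to 1950 CPM in LPS and 696 to 1360 CPM in saline lungs and was not called.

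Of 19 tested genes of endothelial activation and adhesion, which hold white cells to the vessel wall, 6 rose and none fell. Their median was 0.61, and their summed level overlapped, at 4050 to 6590 CPM in LPS and 3160 to 4930 CPM in saline lungs. Selp, which lets white cells roll, was at 46.9 to 157.2 CPM (median 145.3) in LPS lungs and at 1.34 to 12.2 CPM (median 6.38) in saline lungs (log2 change 4.18 ± 0.51, edgeR adjusted p = 1.25e-10). Sele changed by 3.46 ± 0.71, Icam1 by 2.45 ± 0.34 and Vcam1 by 2.18 ± 0.25. These 4 were higher in each LPS lung than in each saline lung. Of 18 genes of coagulation and fibrinolysis 6 rose, with Plaur, the urokinase receptor, at 36.2 ± 9.5 CPM in LPS and 9.01 ± 3.28 CPM in saline lungs (2.0 ± 0.33). Thbd, the endothelial anticoagulant thrombomodulin, was at 409 to 962 CPM in LPS and 758 to 2400 CPM in saline lungs and was not called (edgeR adjusted p = 0.43). Of 22 matrix proteases and inhibitors 6 rose, including the inhibitor Timp1 (3.19 ± 0.39), the gelatinase Mmp9 (1.97 ± 0.41) and the neutrophil collagenase Mmp8 (77 counts in LPS and 2 in saline lungs), and 2 fell, including the stromelysin Mmp11 (-1.86 ± 0.35), with 1 fall left without LPS replicate 2.

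Metabolic and stress genes were mixed. Acod1, which makes itaconate in macrophages, was the largest rise of all named genes, at 347, 421, 449 and 666 CPM in LPS lungs and 0.514 to 2.95 CPM (median 1.01) in saline lungs (log2 change 8.30 ± 1.19, edgeR adjusted p = 2.79e-08). Of 32 genes of prostanoids, leukotrienes and nitric oxide 6 rose and 1 fell. Arg2 (2.73 ± 0.32), the mitochondrial arginase, and Gch1 (2.33 ± 0.32), which makes the cofactor of nitric oxide synthases, rose. Nos2, the inducible synthase, was at 5.08 to 19.3 CPM in LPS and 4.04 to 28.1 CPM in saline lungs, overlapped and was not called. Ptgs2, cyclooxygenase 2, was at 39.3 to 100.2 CPM in LPS and 13.8 to 48.7 CPM in saline lungs and was not called (1.06 ± 0.54). Of 30 genes of glucocorticoid, metal and oxidant responses 9 rose: the metallothionein Mt2 was at 979, 1720, 1040 and 645 CPM in LPS lungs and at 23.8 to 93.3 CPM (median 33.1) in saline lungs (4.67 ± 0.46, edgeR adjusted p = 1.13e-14), and the cystine importer Slc7a11 changed by 4.25 ± 0.72. Of 29 genes of inflammasomes and cell death 9 rose, with the sensor Nlrp3 at 3.91 to 7.53 CPM in LPS and 0 to 0.623 CPM in saline lungs (4.56 ± 0.92). Of 19 clock genes 1 rose, Nfil3 (1.37 ± 0.28), and of 29 cell division genes 1 rose, the arrest gene Cdkn1a (2.04 ± 0.38), and 1 fell, the checkpoint kinase Bub1 (-1.65 ± 0.43); both lists are near the 5.48% and 3.49% over all genes tested.

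Markers of neutrophils, monocytes and interstitial macrophages differed between the groups along with the genes above. Some of them are on other lists too. Il1f9 is also counted among the interleukins, Cxcr2 among the chemokine receptors and Csf3r among the cytokine receptors. F13a1 is also counted among the coagulation genes and Lyve1 among the endothelial markers. Entry of cells and induction in cells already present were not told apart. Of 26 tested neutrophil markers 15 rose and 1 fell, their median was 2.78, and their summed level was 2610 to 4330 CPM in LPS lungs and 686 to 1730 CPM in saline lungs. Padi4 of this list was at 0 in all 10 lungs. S100a8, the neutrophil calprotectin subunit, was at 31.6, 33.8, 519 and 314 CPM in LPS lungs and at 0.191 to 18.3 CPM (median 5.70) in saline lungs (log2 change 5.08 ± 1.0, edgeR adjusted p = 7.73e-05). LPS replicates 3 and 4 were several times higher than the other LPS lungs, which were themselves above every saline lung. Retnlg (2.84 ± 0.46), Clec4e (3.70 ± 0.58) and Ly6g (1.79 ± 0.31) rose, and G0s2, an inhibitor of lipolysis that is also abundant in fat, fell (-1.11 ± 0.25). Of 23 monocyte and interstitial macrophage markers 8 rose, with Vcan at 108.2 ± 13.1 CPM in LPS and 10.6 ± 4.52 CPM in saline lungs (3.35 ± 0.37) and Plac8 at 383 ± 88.9 and 65.7 ± 19.6 CPM (2.54 ± 0.32), and their summed level was 2140 to 3760 CPM in LPS and 1310 to 2090 CPM in saline lungs. Without saline replicate 3 or LPS replicate 4, 5 of these markers rose. How much of the cytokine, interferon and acute phase changes these cells account for was not tested.

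None of 21 alveolar macrophage markers was called, nor of 26 T and NK cell markers, 16 alveolar type 1, 23 alveolar type 2 and 26 airway epithelium markers. Sftpc, the type 2 surfactant protein, was at 1770 to 5110 CPM in LPS and 1750 to 4750 CPM in saline lungs, and the secretoglobin Scgb1a1 of club cells at 17400 to 41200 CPM in LPS and 32800 to 67300 CPM in saline lungs. Of 19 B cell markers 17 had a change below 0 and the median was -0.79, and by the test 2 fell and 1 rose. Cd79a, a signalling chain of the B cell receptor, was at 51.4, 56.9, 37.4 and 49.5 CPM in LPS lungs and at 67.9 to 234.7 CPM (median 137.2) in saline lungs (-1.57 ± 0.41, edgeR adjusted p = 0.00466). It was below saline in every LPS lung, and the summed level of the list was 178 to 271 CPM in LPS and 301 to 603 CPM in saline lungs. The marker that rose, Fcer2a (1.2 ± 0.35), a low-affinity IgE receptor, lost its call without LPS replicate 1 (0.97).

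**Figure D3:**
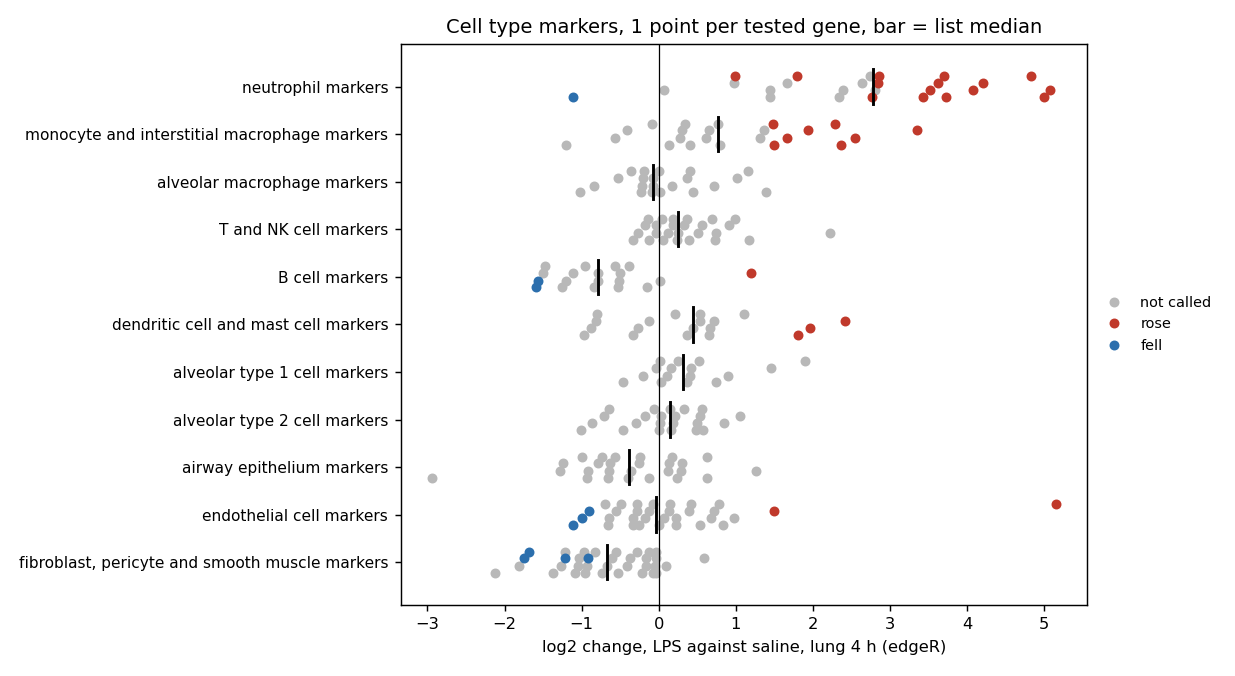
Log2 change in 4 LPS against 6 saline lungs at 4 h (horizontal axis) for each tested marker of 11 cell classes, coloured by whether edgeR called it; vertical bars are list medians. Neutrophil markers lie mostly to the right with a median of 2.78, and B cell (-0.79) and fibroblast, pericyte and smooth muscle markers (-0.67) have medians left of 0.

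Traces of other organs were checked as well. The pancreatic enzymes Pnlip, Cela2a and Try4 were called higher at very low levels: Pnlip had 37 counts in LPS and none in saline lungs, at 4.95 CPM in LPS replicate 1 and 0.15 to 0.753 CPM in the others. Haemoglobin genes were not called, and the atrial gene Myl7 was at 278 CPM in LPS replicate 1, at 37.8 to 67.3 CPM in the other LPS lungs and at 25.4 to 124.9 CPM in saline lungs. LPS replicate 1 held the highest level of both tissues' genes. Without it 759 genes rose and 563 fell.

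Among genes that averaged 5 CPM or more in LPS or in saline lungs, the 15 largest falls were of genes at low level, with means of 0.662 to 5.87 CPM in LPS and 5.5 to 46.2 CPM in saline lungs. Crb1, a polarity protein of epithelia, was at 2.05, 0.751, 3.49 and 1.69 CPM in LPS lungs and at 12.9 to 31.5 CPM (median 20.4) in saline lungs (log2 change -3.34 ± 0.45, edgeR adjusted p = 4.55e-09). Gdf10, a secreted ligand of the TGF-beta family, was at 5.12, 11.4, 2.99 and 3.95 CPM in LPS lungs and at 26.4 to 83.6 CPM (median 41) in saline lungs (-2.96 ± 0.48, edgeR adjusted p = 1.02e-06). Nat8f6, an acetyltransferase family member, was at 5.97, 3.3, 2.99 and 6.96 CPM in LPS lungs and at 18 to 43.8 CPM (median 30.2) in saline lungs (-2.65 ± 0.50). No LPS lung overlapped saline for these 3. The bile acid transporter family member Slc10a5 (-3.32 ± 0.68), the neuronal adhesion protein Lrrn3 (-3.05 ± 0.56), the channel regulator Lrrc26 (-2.73 ± 0.52), the exchange factor Arhgef19 (-2.73 ± 0.58) and the beta-3 adrenergic receptor Adrb3 (-2.67 ± 0.57) were likewise below saline in all 4 lungs. For several of these genes saline replicate 1 was far above the other saline lungs, and without it Sema6c, a semaphorin (-2.78, then -2.08), and Grhl3, an epithelial transcription factor (-2.75, then -1.96), lost their calls.

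Of 73 genes of BMP, TGF-beta, hedgehog, Notch and Wnt signalling 8 fell and 3 rose, beside 3.49% and 5.48% of all genes tested. Rises were thus no more frequent in this list. Without LPS replicate 2 or 3, 5 of its genes fell. The falls included Gdf10, the hedgehog inhibitor Hhip (-1.75 ± 0.35), the ligands Wnt2 (-1.68 ± 0.34) and Shh (-1.21 ± 0.31) and the hedgehog transcription factor Gli2 (-1.69 ± 0.44). Hhip was at 8.36, 14.3, 7.81 and 9.6 CPM in LPS lungs and at 25.4 to 41.4 CPM (median 34.7) in saline lungs, and Wnt2 at 3.75, 9.01, 3.32 and 6.4 CPM against 12 to 23 CPM (median 19.3). Both were lower in every LPS lung. The rises were the Notch ligand Dll1 (2.17 ± 0.50), Smad1, and the activin chain Inhba (3.19 ± 0.80), which was at 208 CPM in LPS replicate 1 and lost its call without it (1.87); Smad1 (1.02 ± 0.33) lost its call without LPS replicate 2 (0.70), and also without saline replicate 3 (1.0), 4 (0.98) or 5 (1.01).

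Of 31 tested enzymes of airway detoxication, which clear xenobiotics, 6 fell and none rose. Without saline replicate 1 or LPS replicate 1, 2 or 3, 4 of these enzymes fell. The monooxygenase Fmo5 was at 3.24, 5.56, 4.49 and 6.78 CPM in LPS lungs and at 11.5 to 20.6 CPM (median 16) in saline lungs (-1.63 ± 0.30, edgeR adjusted p = 1.6e-05), without overlap. The aldehyde oxidase Aox3 changed by -1.44 ± 0.34 and Por, the reductase that feeds electrons to P450 enzymes, by -0.99 ± 0.27 (without LPS replicate 1, -0.78 and not called). Of 35 fibroblast, pericyte and smooth muscle markers 33 had a change below 0, with a median of -0.67, and 4 fell, including Col3a1, a fibrillar collagen (311 ± 48.6 CPM in LPS, 591 ± 179 CPM in saline lungs), and the growth factor Fgf10 (-1.22 ± 0.32). The others, Hhip and Wnt2, are already counted among the falls of the signalling list above. The summed level of the fibroblast, pericyte and smooth muscle markers was 4510 to 7900 CPM in LPS and 7000 to 13300 CPM in saline lungs. That of airway epithelium markers was 20900 to 49500 and 38600 to 77100 CPM. Most of the airway sum was Scgb1a1 alone (31800 ± 11000 CPM in LPS, 42000 ± 13100 CPM in saline lungs), and no airway epithelium marker was called. What part fibroblasts, pericytes, smooth muscle and airway epithelium have in the falls was not tested. Among 32 endothelial markers 2 rose and 3 fell, beside 5.48% and 3.49% of all genes tested, so the share of rises was near that over all genes. The rises, Ackr1 and Lyve1, are also counted on other lists. Sox17, an arterial transcription factor, changed by -1.11 ± 0.29, and without LPS replicate 4 (-0.93) it was not called. Without LPS replicate 1 or 4 only 1 of the 3 falls was called, and 1 of the 2 rises without saline replicate 1, 3, 4 or 5 or LPS replicate 2, 3 or 4.

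The 4 LPS lungs differed from each other in which genes were highest. Among risen members, the median log2 change over the saline mean was 2.35, 1.90, 1.52 and 1.25 for NF-kB subunits and inhibitors in LPS replicates 1 to 4, and 2.84, 2.76, 1.87 and 1.87 for feedback inhibitors. For neutrophil markers it was 2.79, 2.55, 3.92 and 3.55, and for monocyte markers 1.18, 1.85, 2.49 and 2.28. Replicates 1 and 2 thus had the higher medians for NF-kB and its inhibitors, and replicates 3 and 4 for both kinds of marker. Interferon effectors varied less, at 2.75, 2.92, 3.06 and 2.83. These members were selected for having risen, so only the differences among the 4 lungs are of note, and with 4 animals they were not tested.

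**Figure D4:**
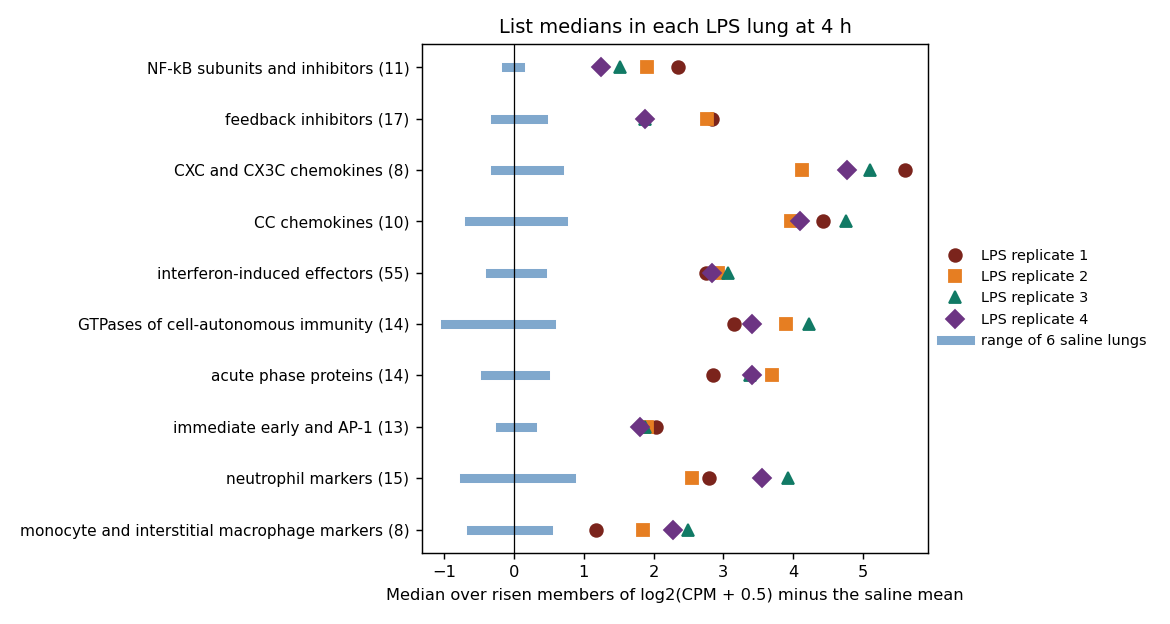
Median over the risen members of each list of log2(CPM + 0.5) minus the saline mean, 1 symbol per LPS lung at 4 h, with the range of the same median over the 6 saline lungs as a bar; the number of risen members is in parentheses. Replicates 1 and 2 lie right of 3 and 4 for feedback inhibitors and left of them for neutrophil markers.

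Some risen genes were neighbours, counted along the 14246 tested genes with a known position. Of 781 risen genes with a known position, 200 (25.6%) lay in 80 runs of adjacent risen genes, and of 499 fallen genes 47 (9.42%) lay in 22 runs. The shares that random placement would give were not computed, so neither share is read as an excess. The longest run held 7 Schlafen genes on chromosome 11, with log2 changes of 2.29 to 6.46. Others were 6 Serpina3 genes on chromosome 12 (2.66 to 4.46), 5 Ly6 genes on chromosome 15 (1.48 to 3.73), and the serum amyloid genes Saa1, Saa2 and Saa3 on chromosome 7 (6.88 to 7.87). Such families arose by duplication, and their members can share reads.

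The 4 h effect was then set against the effect of LPS at 24 h, measured in other animals, where 7.58% of genes tested were called higher and 4.51% lower. Of the 793 rises, 525 (66.2%) were also called higher at 24 h and none lower. Of the 505 falls, 164 (32.5%) were also called lower at 24 h and 2 higher. The difference of the effects itself was called for 21 genes with a higher signed effect at 4 h (0.145% of genes tested) and 63 with a lower one (0.436%). Most 24 h libraries were on plate 2, so time and plate mostly coincide, and the fit carries a plate term. Without LPS 24 h replicate 2 the counts were 3 and 16.

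Elovl6, a fatty acid elongase, was higher under LPS at 4 h and near saline at 24 h: it was at 66.9, 66.7, 64.6 and 47.8 CPM in LPS and 8.91 to 14.8 CPM in saline lungs at 4 h, against 10.8 ± 4.84 CPM in LPS and 9.29 ± 2.57 CPM in saline lungs at 24 h (SD, n = 4 and 6). Its effect was larger at 4 h by 2.15 ± 0.41 on the log2 scale (edgeR adjusted p = 0.00125). The call of this difference was not kept in every alternative run. Enpp6, a choline phosphodiesterase, was not called at 4 h (0.55 ± 0.39) and fell at 24 h (-2.41 ± 0.44), a difference of 2.96 ± 0.58. Scgb3a2, a secretoglobin of small airways, changed by -0.79 ± 0.36 at 4 h, not called, and by -3.04 ± 0.41 at 24 h, a difference of 2.26 ± 0.51 that was lost without LPS 4 h replicate 4 (1.98) or LPS 24 h replicate 2 (2.06). Cyp1a1, a P450 enzyme, changed by -0.41 ± 0.54 at 4 h and -4.88 ± 0.84 at 24 h; the difference, 4.47 ± 1.0, was lost without LPS 24 h replicate 2 (4.13).

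In the other direction, Nos2 was not called at 4 h (0.32 ± 0.45) and was at 611 ± 590 CPM in LPS and 15.6 ± 3.65 CPM in saline lungs at 24 h (5.29 ± 0.49), a difference of -4.97 ± 0.67 (edgeR adjusted p = 1.04e-07). Slamf8, a receptor of macrophages, differed by -5.29 ± 1.07, and Gatm, the first enzyme of creatine synthesis, by -3.46 ± 0.59, with changes of -0.90 ± 0.42 at 4 h and 2.56 ± 0.40 at 24 h. Ubd, a ubiquitin-like protein, had already risen at 4 h (4.27 ± 0.94) and changed by 10.21 ± 1.06 at 24 h. The call of its difference was lost without LPS 24 h replicate 2, LPS 4 h replicate 4 or saline 4 h replicate 1, with values of -5.69, -5.76 and -5.52. The 4 marker genes were not called for a difference: it was -1.21 ± 1.02 for Cxcl10, -0.71 ± 0.42 for Oasl2, -1.67 ± 0.71 for Tnf and 0.91 ± 1.31 for Csf3, and these errors leave room for sizeable differences.

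**Figure D5:**
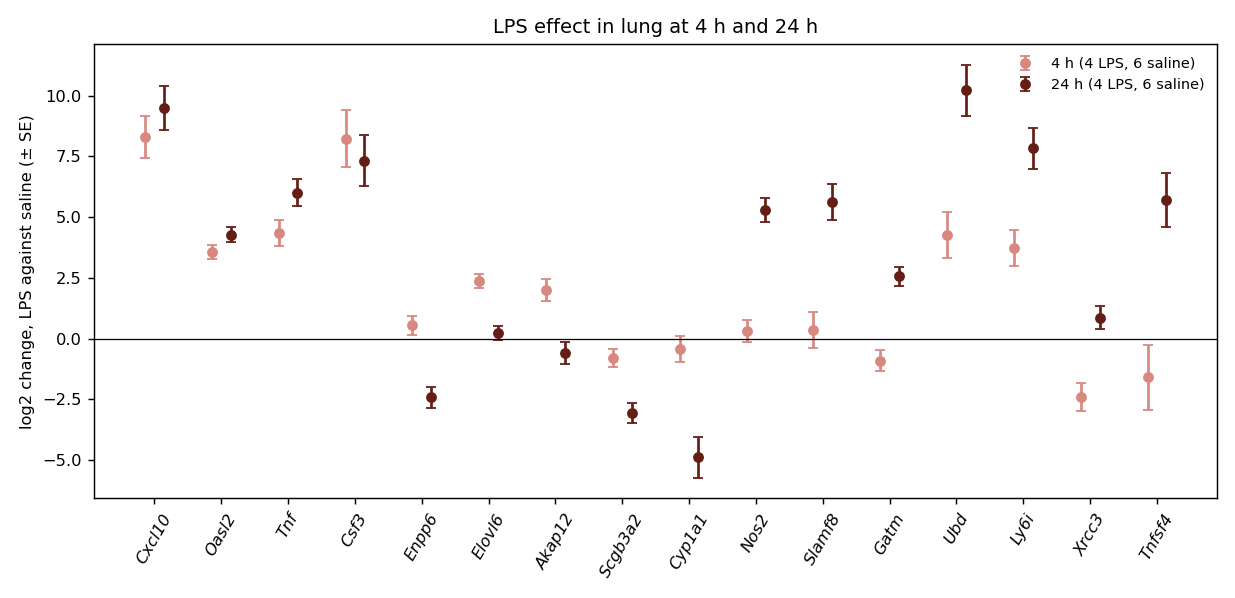
Log2 change of LPS against saline lungs at 4 h (pale) and 24 h (dark) for 16 genes, with SE bars, n = 4 LPS and 6 saline lungs at each time. Cxcl10, Oasl2, Tnf and Csf3 lie above 0 at both times, Elovl6 is high at 4 h alone, and Nos2, Slamf8 and Gatm are high at 24 h.

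Against the smokes, LPS was tested without the saline animals, as LPS at 4 h minus the mean of the 10 smoke groups at 4 h. By this contrast 1034 genes were higher (7.15% of genes tested) and 562 lower (3.89%), and the falls numbered 251, 343 and 339 without LPS replicate 3, 2 or 4. It shares its LPS lungs with the comparison above, so the 2 are not independent. Most lungs of the pine needle smolder group were on plate 2. Cxcl10 was at 659 to 2440 CPM in LPS lungs and at 0.374 to 35.5 CPM in the 60 smoke lungs (log2 change 7.53 ± 0.33, edgeR adjusted p = 1.41e-41). Slfn4 was at 1000 to 4690 CPM in LPS lungs and at 12.2 to 103.3 CPM in smoke lungs (6.22 ± 0.27). For Acod1 the values were 347 to 666 CPM in LPS lungs and 0 to 27.3 CPM in smoke lungs (7.06 ± 0.46), and for Tnf 116.6 to 181.1 CPM and 3.22 to 38.5 CPM (3.74 ± 0.28). Not 1 of the 60 smoke lungs reached an LPS lung for these 4 genes. Gdf10 was at 2.99 to 11.4 CPM in LPS lungs and at 22.3 to 167.9 CPM in smoke lungs (-3.25 ± 0.45), again with no overlap. All these genes were named as markers or for large changes in the same LPS lungs. How many of all genes lacked overlap with the smoke lungs was not counted.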

How the data were processed

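The deposited table held raw counts per probe, as the authors made them, for 30146 probes and 170 libraries. The labels' protocols describe TempO-Seq, a probe assay, and also name a QuantSeq library kit, so the chemistry is stated in 2 ways. Bowtie and DESeq2 are named in the submitters' processing notes, with no versions, and the genome build is not given in the sources used here. Probes of 1 symbol were summed, giving 21450 symbols, of which 6290 had several probes. Groups came from the labels on tissue, treatment and time, and no library was left out.

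A single model of the 140 lung libraries, with terms for group and plate and a shared estimate of the spread, was fitted in R 4.3.3 with edgeR 4.0.16 (quasi-likelihood, TMM, filterByExpr, robust). Genes with a Benjamini-Hochberg adjusted p under 0.05, over 14458 genes, were called. Each SE came from the log2 change and the root of its F statistic. The same model gave LPS against saline at 4 h, the 4 h minus the 24 h effect, and LPS against the mean smoke. The steps were tested on simulated counts. Intervals are 95% and, like the floor of 3 counts, cover counting error only. Replicate numbers are in accession order and pair no samples. The lowest number of symbols that differed between 2 libraries of a group was 15257, so none was a copy.

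The comparison, its 42 gene lists and the naming rule were chosen with earlier results of these data known. Named are the 15 largest rises and falls with a mean of at least 5 CPM, up to 5 called members per list and direction with the smallest p, the 8 largest per direction in the other contrasts, and Cxcl10, Oasl2, Tnf and Csf3. Symbols that are clone or gene-model identifiers were passed over. Ly96 and Ticam1 are named as background alone. Chosen after their values were seen were Myd88, Lbp, Tlr4, Rela, Cxcl9, Cxcl12, Il1b, Il23a, Ifnb1, Il10, Il12b, Ifit1, Isg15, Mx1, Irf3, Ciita, Lcn2, C3, Thbd, Ptgs2, S100a8, Sftpc, Scgb1a1, Myl7, Siglech and Ccr7, and Padi4, which is named for its count of 0. Alternatives were DESeq2 1.42.0 or its size factors, no filter, no plate term, each probe alone, other sets of libraries, and leaving out each library. A few named genes are left out of the text.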

Additional observations from a re-analysis of the deposited data

Results flagged for a closer look

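Single lungs stood apart from the others of their group by Dixon's test in 22 combinations of gene and group (16.5% of those tested). The test's rate of about 1 in 20 holds for independent, normally distributed values. CPM need not be normal and genes can move together, so no excess over that rate is claimed. The flag of Csf3 in saline lungs rests on 1 count. Saline replicate 1 was the highest saline lung for Ciita (65 CPM), Cxcl10 (11.5 CPM), Inhba (27.1 CPM), Irak2 (184 CPM), Irf3 (228 CPM), Nfkbia (673 CPM), Nos2 (28.1 CPM) and Scgb1a1 (67300 CPM). Saline replicate 6 was the highest for Ccl20 (40.9 CPM), Csf3 (0.155 CPM), Cxcl2 (19.9 CPM), Il6 (7.31 CPM), Lcn2 (865 CPM), S100a8 (18.3 CPM) and Tnf (9.8 CPM), and saline replicate 4 for Mt2 (93.3 CPM). Among LPS lungs, replicate 1 stood apart for Inhba (208 CPM), Myl7 (278 CPM) and Pnlip (4.95 CPM), replicate 3 for Saa1 (107.3 CPM), and replicate 4, as the lowest, for Elovl6 (47.8 CPM) and Vcan (88.6 CPM). Without saline replicate 6, 763 genes rose and 542 fell at 4 h.

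The effect of LPS differed between 4 h and 24 h, by the test of the difference, for 16 named genes. The signed difference, the 4 h minus the 24 h effect on the log2 scale, was above 0 for Cyp1a1 (4.47), Col14a1 (3.52), Colq (3.16), Ctnna3 (2.98), Enpp6 (2.96), Akap12 (2.58), Scgb3a2 (2.26) and Elovl6 (2.15). It was below 0 for Tnfsf4 (-7.30), Ubd (-5.93), Slamf8 (-5.29), Nos2 (-4.97), Apol6 (-4.72), Ly6i (-4.10), Gatm (-3.46) and Xrcc3 (-3.28). Of all 21 differences above 0, 7 were of genes called higher at 4 h and 14 of genes called lower at 24 h. The calls of Enpp6, Slamf8, Nos2 and Gatm held in every alternative run, and that of Elovl6 did not. Without LPS 24 h replicate 2, the calls of Cyp1a1 (4.13), Col14a1 (3.34), Colq (3.17), Ctnna3 (2.62), Akap12 (2.56), Scgb3a2 (2.06), Tnfsf4 (-6.94), Ubd (-5.69), Apol6 (-4.56), Ly6i (-3.92) and Xrcc3 (-3.06) were lost.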

How the results depend on the processing

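No paired analysis was possible because the labels give no replicate numbers that the groups share. No called change of a named gene reversed under any alternative, while uncalled changes near 0 did cross it, as for Myl7 (0.42, and -0.55 without LPS replicate 1), Ciita (0.42 and -0.23 without the same lung) and Cyp1a1 at 4 h (-0.41, and 0.20 without saline replicate 6). Of 195 named genes called at 4 h, 167 kept their call in every alternative run and 28 lost it in at least 1. Against 793 rises and 505 falls, a fit without lung libraries of fewer than 13000 detected genes gave 1216 and 908, and a fit of the 4 h lungs alone 1349 and 1067, while the 10 libraries alone gave 775 and 362 and DESeq2 982 and 611. Leaving out 1 library gave 618 to 763 rises and 253 to 563 falls, with 302 falls without LPS replicate 2 and 253 without LPS replicate 3. Some list counts dropped too. Without LPS replicate 2, the rises were 8 for cytokine receptors, 11 for interferon sensors and transcription factors and 10 for immediate early and AP-1 genes. For MHC class I and its processing they were 8 without LPS replicate 2 or saline replicate 3. For inflammasomes and cell death they were 6 without LPS replicate 3. The 10 libraries alone did not call Aox3 (-1.44), Fgf10 (-1.21), Shh (-1.21), Ikbke (1.68) or Grhl3 (-2.75), and each probe alone did not call Col3a1 (-1.07) or Por (-0.98).

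The difference between 4 h and 24 h was called higher for 0.145% and lower for 0.436% of genes tested. These became 0.491% and 0.699% with DESeq2, 0.57% and 1.07% without libraries of few detected genes, and for the higher ones 0.256% with DESeq2 size factors, 0.0903% with each probe alone and 0.0528% with the 20 LPS and saline libraries alone. Leaving out 1 library gave 0.0205% to 0.201% higher and 0.109% to 0.533% lower, both lowest without LPS 24 h replicate 2. LPS against the mean smoke, 1034 higher and 562 lower, became 1590 and 1095 with the 4 h lungs alone and 947 lower without libraries of few detected genes. Leaving out 1 LPS library gave 830 to 1014 higher and 251 to 622 lower, with 343, 251 and 339 lower without replicates 2, 3 and 4. The cause was not tested. Genes with few counts, such as Ifnb1, Il10 and Il12b, could not be tested at this depth.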

Other observations

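Among 19 tested dendritic and mast cell markers 3 rose and none fell, with a median log2 change of 0.44. Fscn1, the actin bundler of mature dendritic cells, was called (1.96 ± 0.49), as was Bst2 (2.42 ± 0.31), which interferon also induces in other cells. Batf3, a transcription factor of one dendritic subset, changed by 1.80 ± 0.52 and lost its call without LPS replicate 1 (1.36). Siglech (1.10) and Ccr7 (0.66) were not called. None of 8 mitochondrially encoded genes was called, with a median of -0.02.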
